A study of Mus musculus with 12 samples.

Results

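The 49 genes described here encode the machinery that copies DNA in S phase. They were chosen as a list of gene symbols, and all 49 were found among the 23358 rows of the deposited count table. By role they fall into 9 genes of origin recognition and licensing, 14 of the replicative helicase and its activation, 9 of the polymerases and primase, 11 of the clamp, clamp loader, single-strand binding and lagging-strand maturation, 4 of nucleotide supply and 2 of the maintenance of DNA methylation. All 49 passed the filter on low counts, which kept 13534 rows.

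Before S phase, the origin recognition complex marks the places where copying can start, and Cdc6 and Cdt1 load the Mcm2 to Mcm7 ring there as an inactive helicase. The kinase Cdc7 with its partner Dbf4, together with Mcm10, Cdc45 and the GINS complex, turns the ring into a working fork, where polymerases held by the clamp Pcna extend the new strands from primers. Many of these genes are targets of E2F transcription factors and are transcribed most in cells that are about to enter or are passing through S phase, and marrow stromal cells in culture can proliferate or differentiate.

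The cells were mouse bone marrow-derived MSCs (mesenchymal stem cells, which adhere to plastic and give rise to bone, fat and cartilage), sequenced in 4 groups of 3 libraries. The groups were cytochalasin D with CK666 (CytoD+CK), cytochalasin D alone (CytoD), CK666 alone (CK) and no treatment (Ctrl). Cytochalasin D caps the growing ends of actin filaments, and CK666 inhibits the Arp2/3 complex, which starts branched filaments. All cells were kept in MEM with 10% serum and antibiotics and plated at 10000 cells per square centimetre for 1 day, and the compounds were then applied for 24 h. The sources used here give neither the compound concentrations nor whether Ctrl cells received a vehicle, and they list no treatment time for Ctrl. A Ctrl harvest at the same time as the treated cells can thus not be read from them. The sources also do not say whether replicates were separate animals or cultures. A p-value here therefore covers only the spread between libraries, part of which may be technical.

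Libraries held 48930210 to 69269716 counts. All 12 marker genes of marrow stroma were found, and their summed level was 12270 to 12980 CPM (the count after TMM scaling of the libraries to a common depth) in CytoD+CK, 29110 to 31000 CPM in CytoD, 13480 to 14670 CPM in CK and 23780 to 26050 CPM in Ctrl. Most of that sum came from Cxcl12, Col1a1 and Col1a2. Cxcl12 averaged 5746 CPM in CytoD+CK, 18050 CPM in CytoD, 5956 CPM in CK and 8331 CPM in Ctrl. Pdgfra and Vcam1 also had their highest mean in CytoD (426.7 and 493.9 CPM, against 244.8 and 210 CPM in Ctrl). Col1a1, Col1a2, Cd44, Ly6a and Pdgfrb had theirs in Ctrl. The MSC surface markers Thy1 (at most 0.0263 CPM by group mean), Nt5e (at most 0.617) and Lepr (at most 0.949) were near 0 in all groups. The 7 macrophage markers summed to 7.76 to 8.47 CPM in CytoD+CK, 11.95 to 13.03 CPM in CytoD, 6.89 to 9.05 CPM in CK and 9.39 to 10.51 CPM in Ctrl, with Ptprc and Emr1 at 0 in all groups. The 5 endothelial markers summed to at most 0.804 CPM and the 8 erythroid and lymphoid markers to at most 0.367 CPM in any library. CK replicate 3 stood apart: its median absolute log2 difference from the other CK replicates was 0.249 and 0.238, against 0.113 between those replicates. Counts of calls with CK against Ctrl and in the interaction are therefore also given without it. So are members described in full whose call with CK against Ctrl it changes. The comparisons of CytoD+CK with CK and of CytoD with CK rest on this library too, and their counts are not given without it alone. The part of marker levels in the changes described here was not tested.

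Most replication genes were lower with CytoD+CK and with CytoD than in Ctrl, and 24 of the 49 were lower with CK. With CytoD, 40 of the 49 fell and 2 rose, where 37.9% of all 13534 genes tested were called, 18.9% lower and 19.1% higher. With CK, 24 fell and 3 rose, against 41.1% of all genes called, 18.7% lower and 22.5% higher. With CytoD+CK, 39 fell and 3 rose, against 46% of all genes called, 21.6% lower and 24.4% higher. The median log2 fold change of the 49 was -0.86 with CytoD, -0.28 with CK and -0.96 with CytoD+CK, where the median of all genes tested was 0.02, 0.03 and 0.04. Genes were called at an adjusted p under 0.05, from the quasi-likelihood test of edgeR after Benjamini-Hochberg adjustment.

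The 3 comparisons share the Ctrl libraries, so their calls are given side by side and not as independent results. In this sense 24 members were lower in all 3 and 15 were lower with CytoD and with CytoD+CK but not called with CK. Rpa3 was higher in all 3, Orc4 was higher with CytoD and with CytoD+CK, Rfc1 was higher with CK and with CytoD+CK, Orc6 was called higher with CK and Orc2 lower with CytoD, each with no call in the other 2 comparisons. Orc3, Orc5, Gins3, Gins4 and Pold2 were called in none of the 3. Without CK replicate 3, 31 members were lower and 2 were higher with CK; without Ctrl replicate 2, 16 were lower. In bulk RNA, fewer cells in S phase and less of these RNAs per cell cannot be told apart.

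**Figure D1:**
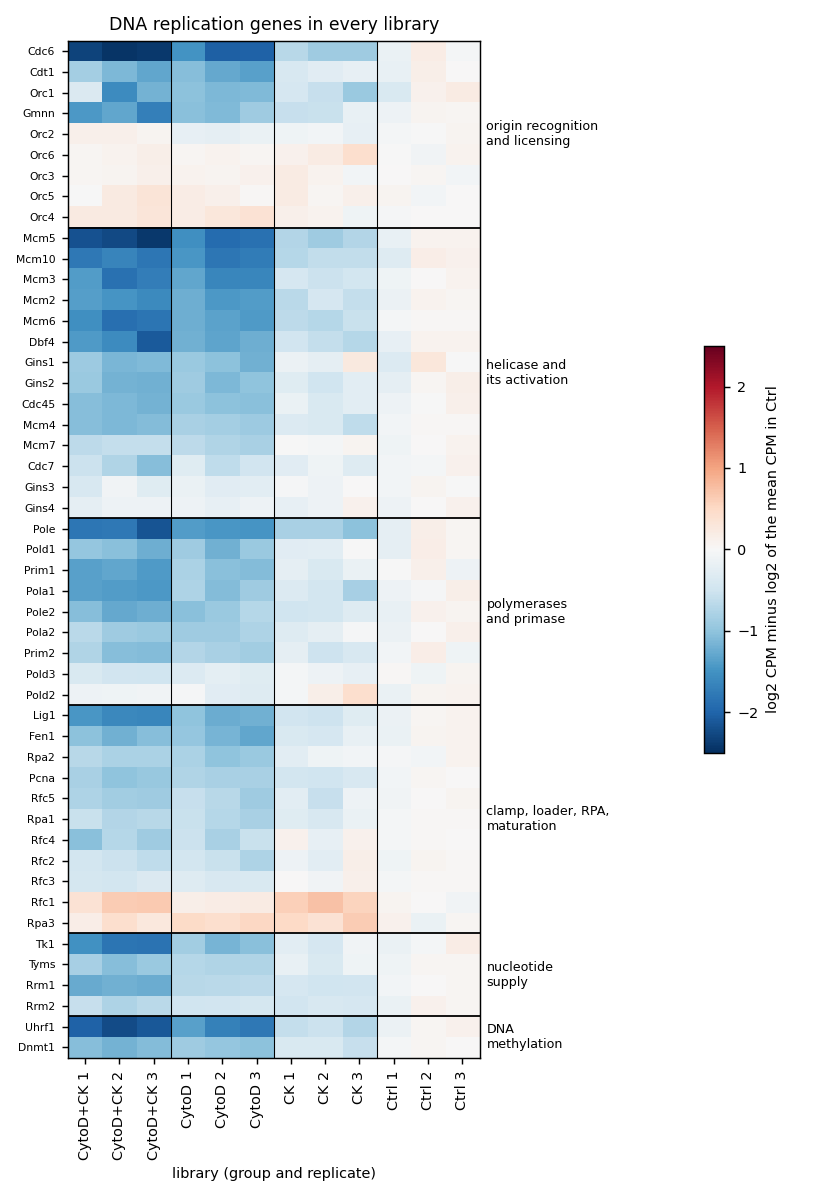
Each row is 1 of the 49 genes and each column 1 of the 12 libraries, with groups in the order CytoD+CK, CytoD, CK and Ctrl; colour gives log2 CPM minus log2 of the gene's mean CPM in Ctrl, and lines separate the 6 roles. Most rows are blue in the CytoD+CK and CytoD columns and paler blue in CK, while Orc2 to Orc6, Gins3, Gins4, Pold2, Rfc1 and Rpa3 stay near white or turn red.

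**Figure D2:**
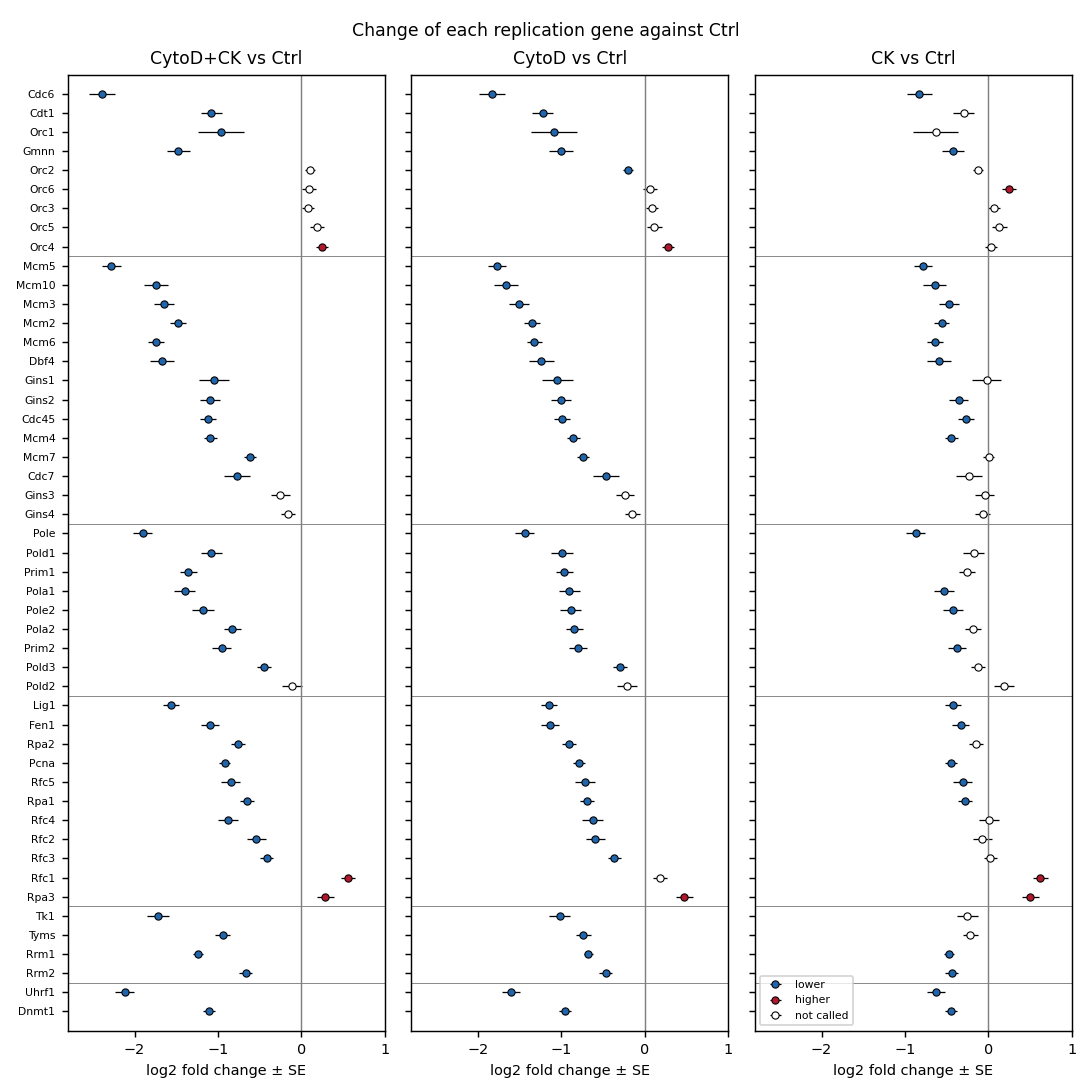
Points give the log2 fold change against Ctrl with its SE for CytoD+CK, CytoD and CK, 3 libraries a group, sorted within each role by the change with CytoD; filled points passed the test. Cdc6 lies farthest left with CytoD+CK (-2.39) and with CytoD (-1.83), and Pole with CK (-0.87).

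Promoter stretches are shown for Cdc6, Uhrf1 and 3 Mcm subunits, among them those with the largest and the smallest fall. They are examples, picked because these genes fell and the stretches hold a pattern of the kind E2F factors bind. The tables used here held promoter sequence for 41 of the 49 members, from RefSeq on build GRCm38.p6, with 250 bases before and 50 after each start. Capitals mark every match to TTTNNCGC on either strand, where N is any base; adjoining capitals in Mcm5 are overlapping matches on opposite strands. Each line is 60 bases, 5′ to 3′ on the strand of the gene: Cdc6 is chr11:98907987-98908046 on the plus strand, Mcm5 chr8:75109334-75109393 on the plus strand, Mcm6 chr1:128359719-128359778 on the minus strand, Mcm7 chr5:138172015-138172074 on the minus strand and Uhrf1 chr17:56303255-56303314 on the plus strand.
Cdc6: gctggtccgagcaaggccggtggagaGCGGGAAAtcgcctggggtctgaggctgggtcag
Mcm5: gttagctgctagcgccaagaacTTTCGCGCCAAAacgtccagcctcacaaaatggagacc
Mcm6: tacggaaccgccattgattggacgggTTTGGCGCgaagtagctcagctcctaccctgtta
Mcm7: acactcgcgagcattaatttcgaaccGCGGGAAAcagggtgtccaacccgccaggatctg
Uhrf1: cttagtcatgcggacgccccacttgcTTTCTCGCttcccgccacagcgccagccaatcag
A match to TTTNNCGC lay in the promoter of 18 of the 41 members (43.9%) and of 1602 of all 27025 genes in the table (5.93%). It lay in 16 of the 33 members called lower with CytoD (48.5%). Among the 8 not called lower it lay in 2 (25.0%), Orc3 and Gins3. Mcm2, Mcm10, Pcna, Tk1, Rrm1 and Rrm2 fell with CytoD and held no match. GGGCGG lay in 72.7% of the members called lower and in 100% of the others. CCAAT, the box read by NF-Y, lay in 61.0% of members and 41.1% of all genes, GGGCGG, a core read by Sp1, in 78.0% and 38.2%, and TTTGAA, found in promoters of mitotic genes, in 19.5% and 20.2%, each searched on both strands. GGCGGGA, searched after the values were seen and able to share 5 bases with GGGCGG, lay in 41.5% of members and 12.7% of all genes. These are letter matches in a fixed window, with no test and no measure of binding.

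Among the 9 licensing genes, those that load the helicase and the restraint on loading fell, while most of the origin recognition complex stayed near its Ctrl level. With CytoD 5 fell and 1 rose (66.7% called, against 37.9% of all genes), with CK 2 fell and 1 rose (33.3%, against 41.1%), and with CytoD+CK 4 fell and 1 rose (55.6%, against 46%), so the shares with CK and with CytoD+CK were near or below those of all genes. Cdc6, the ATPase that brings the helicase ring to origins, had 1.85, 1.69 and 1.73 CPM in CytoD+CK, 3.25, 2.25 and 2.28 CPM in CytoD, 5.67, 4.95 and 4.95 CPM in CK, and 8.23, 10.5 and 8.90 CPM in Ctrl. The 4 groups did not overlap, and the order from low to high was CytoD+CK, CytoD, CK and Ctrl. Cdc6 was 5.24-fold lower with CytoD+CK (log2 -2.39 ± 0.16 SE, adjusted p = 1.14e-07), 3.56-fold lower with CytoD (-1.83 ± 0.16, adjusted p = 3.04e-06) and 1.77-fold lower with CK (-0.83 ± 0.15, adjusted p = 0.000691).

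Cdt1, which loads the ring together with Cdc6, had 9.95, 8.24 and 7.31 CPM in CytoD+CK, 8.59, 7.45 and 7.04 CPM in CytoD, 13.6, 14.8 and 15.5 CPM in CK, and 15.8, 19.9 and 18.2 CPM in Ctrl. The CytoD+CK and CytoD libraries lay among each other and below all others, and the CK libraries lay just below Ctrl. Cdt1 was 2.12-fold lower with CytoD+CK (adjusted p = 1.43e-05) and 2.34-fold lower with CytoD (adjusted p = 1.32e-05), and its change with CK was -0.30 ± 0.12 on the log2 scale (adjusted p = 0.0711). Without CK replicate 3 that change was -0.38 (adjusted p = 0.0335). Gmnn, geminin, which blocks Cdt1 once S phase has begun, fell in all 3 comparisons, by 1.47, 1.01 and 0.42 on the log2 scale with CytoD+CK, CytoD and CK. Its call with CK was lost without CK replicate 1 (adjusted p = 0.0753) or 2 (0.073) or Ctrl replicate 2 (0.0797) or 3 (0.0684).

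Among the 6 subunits of the origin recognition complex, calls went in both directions. The shares called were 33.3%, 50% and 16.7% with CytoD+CK, CytoD and CK, against 46%, 37.9% and 41.1% of all genes. With CytoD+CK and with CK they were thus below those of all genes. Summed over Orc1 to Orc6 and scaled by gene length, their level was 57.0 ± 1.9 RPKM in CytoD+CK, 54.0 ± 0.4 RPKM in CytoD, 55.0 ± 0.5 RPKM in CK and 52.1 ± 1.2 RPKM in Ctrl (SD, n = 3 each). Orc1, whose level rises and falls through the cell cycle in human cells, had the lowest level per length of all 49 genes in Ctrl (0.951 ± 0.195 RPKM). It was 1.95-fold lower with CytoD+CK (adjusted p = 0.0109) and 2.13-fold lower with CytoD (adjusted p = 0.00753), and its change with CK was -0.63 ± 0.27 (adjusted p = 0.0762). Without CytoD+CK replicate 2, which had 0.959 CPM against 2.22 and 1.27 CPM in its group, the adjusted p of CytoD+CK against Ctrl was 0.0511.

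Orc4 had 53.4, 53.9 and 56.7 CPM in CytoD+CK, 52.5, 55.7 and 59.3 CPM in CytoD, 49.8, 48.6 and 42.8 CPM in CK, and 44.95, 46.35 and 46.51 CPM in Ctrl. Every CytoD+CK and CytoD library lay above every Ctrl library, and the CK libraries lay on both sides of them. Orc4 was 1.19-fold higher with CytoD+CK (adjusted p = 0.0119; 0.066 without Ctrl replicate 1) and 1.22-fold higher with CytoD (adjusted p = 0.00787). Its annotated span overlaps that of Acvr2a on the opposite strand, and the part of shared reads was not tested.

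Orc2 had 40.7, 40.9 and 39.1 CPM in CytoD+CK, 32.4, 32.2 and 33.4 CPM in CytoD, 34.8, 35.9 and 32.6 CPM in CK, and 36.3, 37.1 and 39.1 CPM in Ctrl. The CytoD libraries lay below all Ctrl libraries, and the CytoD+CK libraries reached down to the highest of Ctrl. With CytoD Orc2 was 1.15-fold lower (adjusted p = 0.0203), and the adjusted p was 0.0696 without CytoD replicate 1, 0.0734 without CytoD replicate 2 and 0.0817 without Ctrl replicate 3. Orc6 had 23.6, 24.2 and 25.1 CPM in CytoD+CK, 23.6, 24.1 and 23.7 CPM in CytoD, 24.6, 26.2 and 30.3 CPM in CK, and 22.5, 21.5 and 24.3 CPM in Ctrl. CK replicate 3 was the highest of these, and Orc6 was 1.19-fold higher with CK (adjusted p = 0.0276), but 0.11 on the log2 scale without that replicate (adjusted p = 0.171). The call was also lost without Ctrl replicate 1 (0.144), 2 (0.113) or 3 (0.0539), and in 12 of 22 alternatives in all.

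**Figure D3:**
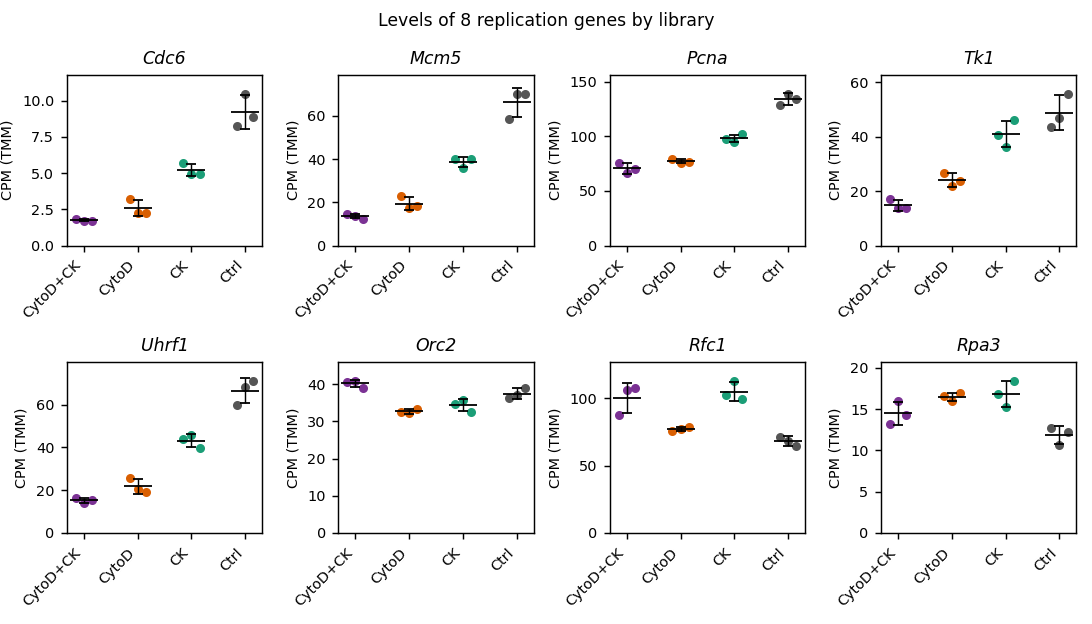
Points are single libraries on a linear CPM axis from 0, with bars for the mean and SD (n = 3), for Cdc6, Mcm5, Pcna, Tk1, Uhrf1, Orc2, Rfc1 and Rpa3 in CytoD+CK, CytoD, CK and Ctrl. Cdc6, Mcm5, Pcna, Tk1 and Uhrf1 lie lower in CytoD+CK and CytoD than in Ctrl, Rfc1 and Rpa3 lie highest in CK by their mean, and Orc2 is lowest in CytoD.

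Nearly all genes of the helicase and its activation fell. Of the 14, 12 fell with CytoD+CK, 12 with CytoD and 9 with CK, none rose, and the median log2 fold change was -1.11, -1.03 and -0.40. The shares called were 85.7%, 85.7% and 64.3%, against 46%, 37.9% and 41.1% of all genes. The Mcm2 to Mcm7 subunits, which form the ring in equal numbers, summed to 67.3, 60.7 and 61.1 RPKM in CytoD+CK, 77.2, 69.05 and 67.35 RPKM in CytoD, 120.1, 117.1 and 120.6 RPKM in CK, and 153, 167.8 and 170.5 RPKM in Ctrl. The sums did not overlap between the 4 groups, and the levels of the subunits lay farther apart in the treated groups by their means. The highest subunit's mean was 4.66 times that of the lowest in CytoD+CK, 3.14 times in CytoD, 2.54 times in CK and 2.31 times in Ctrl.

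Mcm5 fell the most of the 14 and had 14.6, 13.9 and 12.5 CPM in CytoD+CK, 22.7, 17.4 and 18.1 CPM in CytoD, 40.1, 35.7 and 39.8 CPM in CK, and 58.3, 70.2 and 70.0 CPM in Ctrl. The 4 groups did not overlap. Mcm5 was 4.85-fold lower with CytoD+CK (log2 -2.28, adjusted p = 1.56e-08), 3.41-fold lower with CytoD (-1.77 ± 0.11 SE, adjusted p = 4.95e-07) and 1.72-fold lower with CK (-0.78, adjusted p = 0.000102). Mcm2 had 28.1, 26.5 and 24.3 CPM in CytoD+CK, 31.5, 27.0 and 27.7 CPM in CytoD, 46.2, 54.6 and 48.6 CPM in CK, and 66.6, 77.4 and 75.7 CPM in Ctrl. Its CytoD+CK and CytoD libraries overlapped, and CK lay between them and Ctrl. Mcm2 was 2.79-fold lower with CytoD+CK (adjusted p = 7e-08), 2.55-fold lower with CytoD (adjusted p = 7.64e-07) and 1.47-fold lower with CK (adjusted p = 0.000354).

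Mcm7 was the subunit with the smallest fall. It had 43.2, 45.2 and 45.1 CPM in CytoD+CK, 43.3, 40.6 and 39.0 CPM in CytoD, 67.6, 65.8 and 72.1 CPM in CK, and 63.5, 68.9 and 72.7 CPM in Ctrl. The CK and Ctrl libraries lay among each other, and both other groups lay below them. Mcm7 was 1.54-fold lower with CytoD+CK (adjusted p = 1.16e-05) and 1.67-fold lower with CytoD (adjusted p = 7.13e-06), and its change with CK was 0.00 ± 0.07 on the log2 scale (adjusted p = 0.981). The other subunits of the ring fell with CK by 0.45 to 0.78 on the log2 scale, and differences between subunits were not tested, in this ring or in the GINS, RFC and RPA complexes.

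Among the factors that turn the ring into a fork, Mcm10 fell by 1.74, 1.67 and 0.64 on the log2 scale and Dbf4, the activator of the kinase Cdc7, by 1.67, 1.24 and 0.59 with CytoD+CK, CytoD and CK. Cdc45, which joins the ring, fell by 1.12, 0.99 and 0.27 in the same comparisons. Cdc7 itself fell with CytoD+CK (-0.77) and CytoD (-0.47), and had -0.24 with CK (adjusted p = 0.24). The call of Cdc7 with CytoD was lost without CytoD replicate 2 (adjusted p = 0.121) or 3 (0.0801) or Ctrl replicate 2 (0.0593) or 3 (0.103). The call of Cdc45 with CK was lost without CytoD+CK replicate 2 (0.0504), CytoD replicate 2 (0.051), CK replicate 2 (0.115), Ctrl replicate 2 (0.0812) or Ctrl replicate 3 (0.126).

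Of the 4 subunits of the GINS complex, which binds the ring with Cdc45, 2 fell with each treatment that held CytoD. That is 50% called with CytoD+CK and with CytoD, against 46% and 37.9% of all genes. The share with CytoD+CK was thus near that of all genes, of which 21.6% were called lower. Gins1 and Gins2 were each lower with CytoD+CK (-1.05 and -1.10) and with CytoD (-1.05 and -1.01), while Gins3 had -0.25 and -0.24 and was not called (adjusted p = 0.0803 and 0.105). Gins4 had 22.3, 24.0 and 23.9 CPM in CytoD+CK, 23.9, 22.9 and 24.0 CPM in CytoD, 22.9, 24.0 and 28.1 CPM in CK, and 24.0, 26.4 and 28.2 CPM in Ctrl. The groups overlapped or touched throughout, and Gins4 passed the test in none of the 7 comparisons (adjusted p = 0.147 with CytoD+CK, 0.19 with CytoD and 0.562 with CK, against Ctrl). It was called lower without CK replicate 3, with CK (-0.20, adjusted p = 0.038) and with CytoD+CK (-0.19, 0.0229), after the gene length correction (0.0112 and 0.014), and with CytoD+CK when those libraries and Ctrl alone were fitted (0.0424).

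Of the 9 polymerase and primase genes among the 49, all but Pold2 fell with both treatments that held CytoD. Of the 9, 8 fell with CytoD+CK, 8 with CytoD and 4 with CK, and none rose. The shares called were 88.9%, 88.9% and 44.4%, against 46%, 37.9% and 41.1% of all genes. With CK the share in either direction was thus near that of all genes, of which 18.7% were called lower. The catalytic subunit of the leading-strand polymerase, Pole, had 8.54, 8.60 and 6.71 CPM in CytoD+CK, 11.3, 10.9 and 10.7 CPM in CytoD, 17.1, 17.1 and 14.7 CPM in CK, and 25.7, 33.1 and 30.7 CPM in Ctrl. The 4 groups did not overlap. Pole was 3.75-fold lower with CytoD+CK (adjusted p = 6.49e-08), 2.72-fold lower with CytoD (adjusted p = 1.92e-06) and 1.83-fold lower with CK (adjusted p = 6.04e-05), the largest fall with CK among the 49. Of 3 small accessory subunits of these polymerases that are not among the 49, Pole4 was 1.28-fold higher with CytoD+CK (adjusted p = 0.00194) and not called with CytoD (0.897), Pole3 was called with neither (0.604 and 0.247), and Pold4 was 1.23-fold lower with CytoD+CK (0.019) and not called with CytoD (0.397).

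The polymerase that starts each strand, made of Pola1, Pola2, Prim1 and Prim2, fell by 0.83 to 1.40 on the log2 scale with CytoD+CK and by 0.81 to 0.97 with CytoD. With CK, Pola1 (-0.53) and Prim2 (-0.38) passed the test, and Pola2 (-0.18) and Prim1 (-0.26) did not. The call of Prim2 was lost without CK replicate 2 (adjusted p = 0.0502) or Ctrl replicate 2 (0.0758). In the lagging-strand polymerase, the catalytic subunit Pold1 fell by 1.08 with CytoD+CK and 0.99 with CytoD, and the accessory subunit Pold3 fell by 0.45 and 0.30 (adjusted p with CytoD 0.0139, and 0.0547 without Ctrl replicate 3). Pold2, the subunit that links them, had 18.3, 18.5 and 18.9 CPM in CytoD+CK, 19.6, 16.4 and 15.96 CPM in CytoD, 19.3, 22.2 and 26.9 CPM in CK, and 17.8, 21.1 and 21.2 CPM in Ctrl. These groups overlapped and no change from Ctrl was called (adjusted p = 0.49, 0.186 and 0.225). The end of Pold2 shares 46 bases with Aebp1 on the opposite strand, which averaged 83076 counts a library against 1087 for Pold2, and the part of shared reads was not tested.

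At the clamp and on the lagging strand, the 11 members gave 9 that fell and 2 that rose with CytoD+CK, 9 and 1 with CytoD, and 5 and 2 with CK. The shares called were 100%, 90.9% and 63.6%, against 46%, 37.9% and 41.1% of all genes. Pcna, the sliding clamp, had 75.9, 66.4 and 69.8 CPM in CytoD+CK, 79.5, 75.9 and 76.7 CPM in CytoD, 97.5, 94.9 and 102 CPM in CK, and 128, 139 and 134 CPM in Ctrl. CytoD+CK and CytoD met at their edges, and CK and Ctrl each stood apart. Pcna was 1.89-fold lower with CytoD+CK (adjusted p = 2.83e-07), 1.73-fold lower with CytoD (adjusted p = 3.55e-06) and 1.37-fold lower with CK (adjusted p = 0.000197).

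Lig1, the ligase that seals lagging-strand fragments, had 15.9, 14.4 and 14.2 CPM in CytoD+CK, 21.7, 18.5 and 19.0 CPM in CytoD, 31.6, 30.6 and 35.7 CPM in CK, and 39.7, 45.4 and 46.3 CPM in Ctrl. The 4 groups did not overlap. Lig1 was 2.95-fold lower with CytoD+CK (adjusted p = 4.83e-08), 2.22-fold lower with CytoD (adjusted p = 1.89e-06) and 1.34-fold lower with CK (adjusted p = 0.00231). Fen1, the nuclease that trims the same fragments, fell by 1.10, 1.14 and 0.33 on the log2 scale. The Fen1 call with CK was lost without CK replicate 1 (adjusted p = 0.0562) or 2 (0.0624) or Ctrl replicate 2 (0.0767) or 3 (0.0713).

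In the clamp loader, the large subunit was called higher with CytoD+CK, where the other 4 fell. The shares of Rfc1 to Rfc5 called were 100%, 80% and 40% with CytoD+CK, CytoD and CK. Those of all genes were 46%, 37.9% and 41.1%, so the share with CK was near background. Rfc2 to Rfc5 fell by 0.41 to 0.88 on the log2 scale with CytoD+CK and by 0.37 to 0.72 with CytoD. With CK, Rfc5 fell by 0.31 (adjusted p = 0.046), a call lost with the replicate number as a block (0.0549) and without any 1 CytoD+CK library, CytoD replicate 2, CK replicate 1 or 2 or Ctrl replicate 2 or 3 (0.0538 to 0.158). Rfc1, the large subunit, had 87.3, 106 and 108 CPM in CytoD+CK, 75.6, 77.5 and 78.5 CPM in CytoD, 102, 113 and 99.5 CPM in CK, and 71.5, 68.2 and 64.3 CPM in Ctrl. Every treated library lay above every Ctrl library. Rfc1 was 1.47-fold higher with CytoD+CK (log2 0.56, adjusted p = 0.000155) and 1.54-fold higher with CK (0.62 ± 0.09 SE, adjusted p = 9.93e-05), and had 0.18 ± 0.09 with CytoD (adjusted p = 0.113), which was called with upper-quartile scaling (0.0429) and with only CytoD and Ctrl in the fit (0.0071).

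In the single-strand binding protein RPA, calls went in both directions. The shares of its 3 subunits called were 100%, 100% and 66.7% with CytoD+CK, CytoD and CK, against 46%, 37.9% and 41.1% of all genes. Rpa1 and Rpa2 fell with CytoD+CK (-0.66 and -0.76) and with CytoD (-0.69 and -0.91). Rpa3, the smallest subunit, had 13.2, 15.9 and 14.3 CPM in CytoD+CK, 16.57, 15.97 and 16.97 CPM in CytoD, 16.8, 15.2 and 18.4 CPM in CK, and 12.8, 10.6 and 12.3 CPM in Ctrl. Every treated library lay above every Ctrl library, by the least in CytoD+CK. Rpa3 was 1.22-fold higher with CytoD+CK (adjusted p = 0.0322), 1.39-fold higher with CytoD (adjusted p = 0.00246) and 1.42-fold higher with CK (adjusted p = 0.00152). With 638 bases it has the shortest length of the 49, and after a correction for gene length its log2 change was 0.13 with CytoD+CK (adjusted p = 0.216) and 0.19 with CK (adjusted p = 0.0968). The call with CytoD+CK was also lost without CytoD+CK replicate 2 (0.15) or 3 (0.0653) or Ctrl replicate 1 (0.0581), 2 (0.142) or 3 (0.0847), and in 10 of 22 alternatives in all.

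The nucleotide supply genes held 2 of the 3 highest levels. Per gene length, Rrm2, the small subunit of ribonucleotide reductase, stood first in Ctrl at 122.5 ± 11.97 RPKM, Pcna next at 106.2 ± 4.2 and Rrm1, the large subunit, next at 53.4 ± 2.2 (SD, n = 3). All 4 genes fell with CytoD+CK and with CytoD, and 2 of the 4 fell with CK. The shares called were 100%, 100% and 50%, against 46%, 37.9% and 41.1% of all genes, so the share with CK was near that of all genes. Rrm2 had 179, 157 and 167 CPM in CytoD+CK, 188, 193 and 198 CPM in CytoD, 190.4, 201 and 198 CPM in CK, and 237, 287 and 277 CPM in Ctrl. All treated libraries lay below all Ctrl libraries, with CytoD and CK at about the same level. Rrm2 was 1.59-fold lower with CytoD+CK (adjusted p = 1.5e-05), 1.38-fold lower with CytoD (adjusted p = 0.000465) and 1.36-fold lower with CK (adjusted p = 0.000654).

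Rrm1 fell by 1.24, 0.68 and 0.47 on the log2 scale in the same comparisons. Tk1, the cytosolic thymidine kinase of the salvage route, had 17.2, 13.7 and 13.7 CPM in CytoD+CK, 26.8, 21.7 and 23.7 CPM in CytoD, 40.6, 36.3 and 46.1 CPM in CK, and 43.5, 47.0 and 55.9 CPM in Ctrl. CytoD+CK and CytoD each stood apart, and CK overlapped Ctrl. Tk1 was 3.29-fold lower with CytoD+CK (adjusted p = 3e-07) and 2.03-fold lower with CytoD (adjusted p = 4.92e-05), and had -0.25 with CK (adjusted p = 0.121), or -0.39 without CK replicate 3 (adjusted p = 0.0207). Tyms, thymidylate synthase, had 12.87, 10.97 and 12.03 CPM in CytoD+CK, 14.0, 13.6 and 13.7 CPM in CytoD, 20.2, 17.6 and 21.5 CPM in CK, and 21.3, 23.9 and 23.8 CPM in Ctrl. CytoD+CK lay just below CytoD, and CK overlapped Ctrl at its edge. Tyms was 1.92-fold lower with CytoD+CK (adjusted p = 2.77e-06) and 1.67-fold lower with CytoD (adjusted p = 4.67e-05), and had -0.22 with CK (adjusted p = 0.0667), or -0.33 without CK replicate 3 (adjusted p = 0.0082).

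Both genes that maintain DNA methylation at the fork fell in all 3 comparisons. Uhrf1, which binds hemimethylated DNA and recruits the methyltransferase, had 16.5, 14.1 and 15.3 CPM in CytoD+CK, 25.8, 20.5 and 19.2 CPM in CytoD, 44.0, 45.7 and 39.7 CPM in CK, and 59.8, 68.3 and 71.1 CPM in Ctrl. Dnmt1, the methyltransferase, had 31.9, 29.3 and 31.4 CPM in CytoD+CK, 35.8, 33.9 and 32.6 CPM in CytoD, 51.1, 50.8 and 44.5 CPM in CK, and 63.9, 68.4 and 67.0 CPM in Ctrl. In both genes the 4 groups did not overlap and had the order CytoD+CK, CytoD, CK and Ctrl from low to high. Uhrf1 was 4.35-fold lower with CytoD+CK (adjusted p = 2.44e-08), 3.04-fold lower with CytoD (adjusted p = 8.14e-07) and 1.54-fold lower with CK (adjusted p = 0.000586). Dnmt1 was 2.15-fold lower with CytoD+CK (adjusted p = 9.87e-08), 1.95-fold lower with CytoD (adjusted p = 1.24e-06) and 1.36-fold lower with CK (adjusted p = 0.000322).

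Adding CK666 to cells that also received CytoD lowered a minority of the members further. Between CytoD+CK and CytoD, 13 fell and 2 rose, 30.6% of the 49, where 30.1% of all genes tested were called, 14.3% lower and 15.8% higher. The share called in either direction was thus close to the background, but the called members were mostly lower, unlike all called genes. The median log2 fold change of the 49 was -0.13, against 0.02 for all genes. The 13 were Cdc6, Gmnn, Mcm4, Mcm5, Mcm6, Dbf4, Pola1, Prim1, Pole, Lig1, Rrm1, Tk1 and Uhrf1. The largest of these falls was that of Tk1, 1.62-fold (log2 -0.70, adjusted p = 0.0012), and Rrm1 was 1.47-fold lower (-0.56, adjusted p = 2.14e-05). The 2 that rose were Orc2, 1.23-fold (adjusted p = 0.00234), and Rfc1, 1.3-fold (adjusted p = 0.00521). Without CytoD+CK replicate 3 or without CytoD replicate 1, 8 fell. Cdc6, 1.47-fold lower here (adjusted p = 0.0218), lost its call without CytoD+CK replicate 2 (0.0738) or 3 (0.0625) or CytoD replicate 1 (0.0989). Gmnn lost it without CytoD+CK replicate 3 (0.105) or CytoD replicate 1 (0.0509) or 3 (0.101), and Prim1 without CytoD+CK replicate 3 (0.0528) or CytoD replicate 1 (0.0653). Mcm4 lost it without any 1 CytoD+CK or CytoD library or Ctrl replicate 2 (0.0518 to 0.118), and Dbf4 without CytoD+CK replicate 2 or 3, any 1 CytoD library, CK replicate 2 or Ctrl replicate 2 (0.0507 to 0.139).

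Adding CytoD to cells that also received CK666 lowered most members. Between CytoD+CK and CK, 37 members fell and 1 rose, where 11.6% of all genes tested were called, 7.17% lower and 4.43% higher, and the median log2 fold change of the 49 was -0.66 against 0.00 for all genes. Cdc6 was 2.95-fold lower (adjusted p = 4.22e-05) and Tk1 2.76-fold lower (adjusted p = 1.21e-05). The 1 that rose was Orc2, 1.17-fold (adjusted p = 0.0301), a call lost without any 1 CytoD+CK or CytoD library, without CK replicate 1 and without Ctrl replicate 2 (adjusted p = 0.0504 to 0.116).

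The compounds alone also differed from each other. Between CytoD and CK, 37 members were lower with CytoD and 1 was higher, where 39.8% of all genes tested were called, 22.9% lower and 16.8% higher. Cdc6 was 2.01-fold lower with CytoD (adjusted p = 0.000322), Mcm3 2.06-fold (adjusted p = 3.37e-05) and Mcm7 1.67-fold (adjusted p = 7.7e-06). For Rrm2 the log2 difference was -0.03 ± 0.08 SE, which was not called (adjusted p = 0.793). Orc4 was the member that was higher with CytoD, by 0.25 on the log2 scale (adjusted p = 0.0161; 0.0775 without CytoD replicate 3). The concentrations are not given, so the sizes compare these treatments and not the compounds at matched doses.

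The interaction compares the change that CytoD made in cells given CK666 (CytoD+CK minus CK) with the change it made in cells without (CytoD minus Ctrl), as the first minus the second. It was called in 4 of the 49, or 8.16%, where 14.3% of all genes tested were called, 6.63% positive and 7.67% negative. It was positive in Mcm2 (0.43 ± 0.13 SE, adjusted p = 0.0427), Orc2 (0.42 ± 0.09, adjusted p = 0.0066) and Pcna (0.32 ± 0.10, adjusted p = 0.0424), and negative in Rpa3 (-0.69 ± 0.14, adjusted p = 0.00716). Mcm2 and Pcna fell with each compound alone, and the fall with both was smaller than the sum of those log2 changes (-1.48 against -1.35 and -0.56 in Mcm2, -0.92 against -0.79 and -0.45 in Pcna). Rpa3 rose with each compound alone (0.47 with CytoD, 0.50 with CK), and its log2 change with both was 0.29. The calls of Orc2 and Rpa3 held in all 21 alternatives. That of Mcm2 was lost in 9 (adjusted p up to 0.108), among them without CytoD+CK replicate 1 or 2, CytoD replicate 2 or 3, CK replicate 1 or Ctrl replicate 2 or 3, and with the replicate number as a block (0.0556). That of Pcna was lost in 12 (up to 0.125), among them without any 1 CytoD or Ctrl library, CytoD+CK replicate 1 or 3 or CK replicate 1 or 2. Without CK replicate 3, 7 members were positive and 1 was negative.

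**Figure D4:**
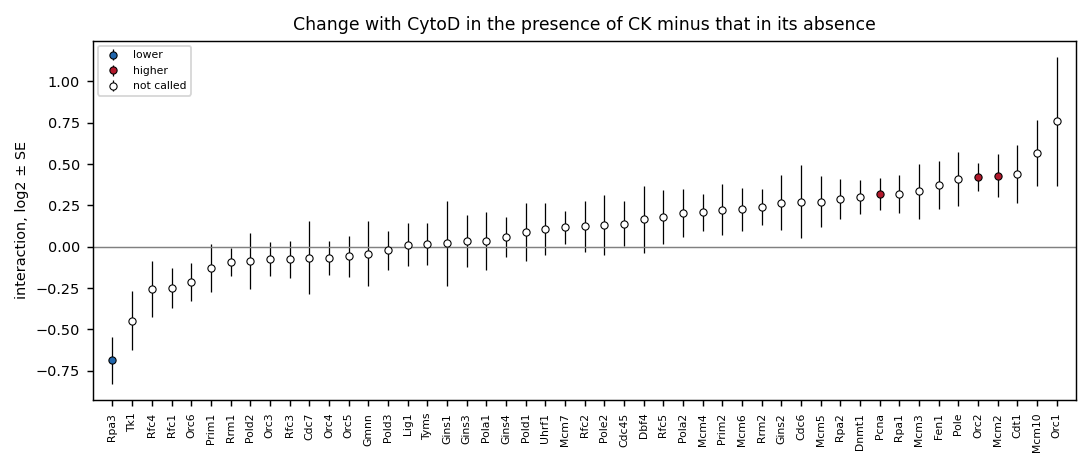
Points give the interaction of each of the 49 genes on the log2 scale with its SE, sorted from low to high; filled points passed the test. Rpa3 is the lowest at -0.69 and the only filled point below 0, and Pcna, Orc2 and Mcm2 are the filled points above 0.

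Other genes of S phase were taken from 4 lists of 74 genes, of which 73 were found and tested. In fork stability and chromatin assembly (24 tested), 18 fell and 2 rose with CytoD+CK, 15 and 0 with CytoD, and 9 and 1 with CK (83.3%, 62.5% and 41.7% called, against 46%, 37.9% and 41.1% of all genes). Top2a, a topoisomerase that untangles copied chromosomes, was 4.47-fold lower with CytoD+CK (log2 -2.16, adjusted p = 2.96e-08), and Dscc1, a subunit of an alternative clamp loader, 2.97-fold lower with CytoD (adjusted p = 0.000186). In E2F family and control of S phase entry (21 tested), 13 fell and 3 rose with CytoD+CK, 15 and 2 with CytoD, and 10 and 0 with CK. The shares called were 76.2%, 81% and 47.6%, against the same shares of all genes.

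E2f8, a repressor of the E2F family, had 1.66, 1.78 and 1.41 CPM in CytoD+CK, 3.29, 2.72 and 2.38 CPM in CytoD, 5.20, 6.50 and 4.16 CPM in CK, and 9.37, 11.93 and 11.99 CPM in Ctrl. The 4 groups did not overlap, in the same order as Cdc6 and Mcm5. E2f8 was 6.83-fold lower with CytoD+CK (adjusted p = 1.37e-07) and 3.97-fold lower with CytoD (adjusted p = 5.11e-06). E2f7, a repressor like it, was 2.17-fold lower with CK (adjusted p = 2.47e-05). E2f1, an activator, was among those that fell in all 3 comparisons. Rb1, which restrains the activators, was 1.42-fold higher with CytoD+CK (adjusted p = 0.00402) and 1.3-fold higher with CytoD (adjusted p = 0.0236). Related genes in the list did not all move the same way. By group mean, E2f3 had 31.5, 28.0, 29.6 and 31.9 CPM in CytoD+CK, CytoD, CK and Ctrl. In the same order, Rbl1 had 23.3, 25.9, 29.8 and 35.3 CPM, and Rbl2 had 72.2, 69.5, 65.7 and 55.1 CPM.

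In other nucleotide enzymes (19 tested), 10 fell and 2 rose with CytoD+CK, 16 and 3 with CytoD, and 6 and 1 with CK. The shares called were 63.2%, 100% and 36.8%, against 46%, 37.9% and 41.1% of all genes, so the share with CK was below that of all genes. Those that rose with CytoD were Samhd1, which breaks down deoxynucleotides, Tk2, the mitochondrial thymidine kinase, and Rrm2b, the reductase subunit used outside S phase. Rrm2b was 1.56-fold higher with CytoD+CK (adjusted p = 0.000854) and 1.58-fold higher with CytoD (adjusted p = 0.000944), where its S-phase counterpart Rrm2 fell. Dck, the deoxycytidine kinase of salvage, was 2.58-fold lower with CytoD+CK (adjusted p = 4.05e-06) and 1.85-fold lower with CK (adjusted p = 0.000217). In the S phase checkpoint (9 tested), 2 fell and 1 rose with CytoD+CK, 3 and 0 with CytoD, and 2 and 0 with CK. These are 33.3%, 33.3% and 22.2% called, each below the share of all genes (46%, 37.9% and 41.1%). Within the list, the checkpoint kinase Chek1 was 2.88-fold lower with CytoD+CK (adjusted p = 3.99e-06) and 2.51-fold lower with CytoD (adjusted p = 2.89e-05), and Wee1 1.54-fold lower with CK (adjusted p = 9.58e-05).

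**Figure D5:**
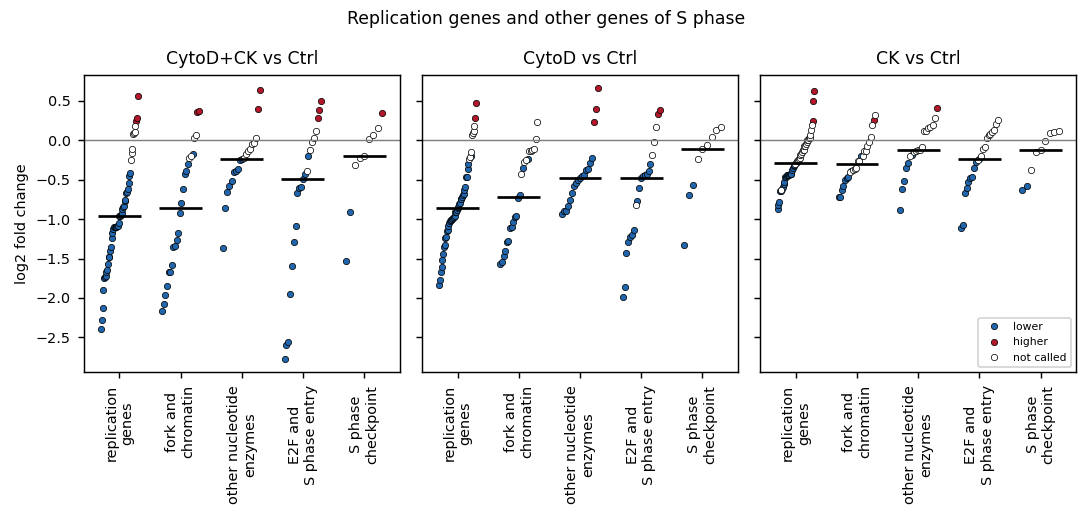
Points are single genes and the horizontal bar the median of each list, with the log2 fold change against Ctrl on the y axis, for CytoD+CK, CytoD and CK; filled points passed the test. The 49 replication genes lie lower by their median (-0.96, -0.86 and -0.28) than the 73 other genes pooled (-0.39, -0.48 and -0.20). Fork stability and chromatin assembly lies nearest to the 49, with medians of -0.857, -0.715 and -0.307, and with CK it lies slightly lower than they do.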

How the data were processed

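The authors' deposited table holds, per the file headers, the read count and the RPKM of every gene row in 12 libraries, with a gene length in bases. Per the submitters' processing notes it was made with CASAVA 1.9, TopHat and HTSeq on build hg19, which is human; the symbols are mouse symbols, and all 49 members overlap the GENCODE M21 gene of that name. Every deposited count is even. Were each fragment counted once per read of its pair, counting error would exceed what the counts imply. The RPKM values that the authors deposited were checked but not tested: their totals exceeded the gene sums 1.122 to 1.162 times. The RPKM printed here were computed from counts, TMM factors and the length column. A count of 0 would allow up to 3 counts, at most 0.0634 CPM, for counting error only; strandedness is not given in the sources used here.

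Rows with enough counts (edgeR filterByExpr, minimum count 10; 13534 of 23358) were scaled by TMM and fitted in edgeR 4.0.16 (R 4.3.3) with a mean per group over all 12 libraries. The quasi-likelihood F test was 2-sided, with the Benjamini-Hochberg adjustment over all genes within each of 7 comparisons, with no adjustment across comparisons. The SE is the size of the log2 fold change over the square root of F. No libraries were duplicates, since the lowest chi-square per degree of freedom between replicates was 11.36. The labels give every group the same replicate numbers without saying what they share. Deviations from group means correlated over 0.1 in every same-number pair of CK with Ctrl (0.151 to 0.198) and of CytoD+CK with CytoD (0.159 to 0.403). The numbers were therefore taken to pair libraries in these 2 comparisons. In the other 4 pairs of groups they did not in every pair. Different numbers gave -0.155 to -0.0315 between CK and Ctrl. Deviations cancel within each group, so positive same-number values force lower ones between different numbers. The latter are thus no separate evidence of pairing. Between CytoD+CK and CytoD they reached 0.199 (CytoD+CK 3 with CytoD 2) and 0.135 (CytoD+CK 2 with CytoD 3), so the pairing there is less certain. The highest value between different numbers in any 2 groups was 0.262. The p-values printed come from the fit without pairing, except where the block is named. The replicate block was fitted over all 12 libraries, with 1 shift per number common to all groups. Pairing within only CK and Ctrl, or only CytoD+CK and CytoD, was not fitted, so its effect on those calls was not tested. Alternatives were RLE and upper-quartile scaling, DESeq2 1.42.0, other filters, halved counts, no Rn45s, a gene length correction, the replicate block, 2-group fits and each library left out.

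The members and lists were chosen with earlier results of these data known. Values in every library are given, by a set rule, for the members with the largest and smallest change with CytoD in each role, those called in the interaction or against their role, and Cdc6, Cdt1, Mcm2, Mcm5, Pcna, Rrm2, Tyms and Uhrf1; Mcm7, Orc1 and other members were added after their values were seen. Spans of 13 members (Orc3, Orc4, Orc5, Cdc6, Mcm7, Gins1, Gins2, Pold2, Pcna, Rfc4, Lig1, Rpa1 and Tk1) overlap other rows, and Pcna and Tyms have named processed pseudogenes, so those counts are less certain.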

Additional observations from a re-analysis of the deposited data

Results flagged for a closer look

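In 4 replication genes the change with CytoD differed between cells with and without CK666, by the interaction term itself (edgeR's quasi-likelihood test, Benjamini-Hochberg adjusted over all genes). These are 8.16% of the 49, where 14.3% of all genes tested were called. In Orc2, a subunit of the origin recognition complex, the difference was 0.42 on the log2 scale (adjusted p = 0.0066): all 3 CytoD+CK libraries lay above all 3 CK libraries, while all 3 CytoD libraries lay below all 3 Ctrl libraries. In Rpa3, the smallest RPA subunit, it was -0.69 (adjusted p = 0.00716). In Mcm2, a helicase subunit, it was 0.43 (adjusted p = 0.0427), and in Pcna, the sliding clamp, 0.32 (adjusted p = 0.0424); both of these calls were lost without single libraries, and that of Mcm2 with the replicate number as a block (0.0556).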

How the results depend on the processing

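Of 232 member results, 178 kept their direction and side of the threshold under all alternatives run, and none of the 206 called results changed sign. The 232 are the 206 called results and some uncalled ones. Those uncalled ones belong to members picked by the set rule, against Ctrl or between CytoD+CK and CytoD. Other uncalled results were left out, so calls that they gained show only in the counts that follow. Members lower with CytoD numbered 37 to 40 and lower with CytoD+CK 39 to 41 when single libraries were left out, against 40 and 39. Members lower with CK numbered 16 to 31, against 24. Members higher with CytoD+CK numbered 1 to 4, against 3. Between CytoD+CK and CytoD, 8 to 16 fell, against 13. Between CytoD+CK and CK, 33 to 37 fell with single libraries left out and 30 to 38 in the other alternatives, against 37. Between CytoD and CK, the same ranges were 34 to 37 and 33 to 37, against 37. The 1 member higher between CytoD+CK and CK became 2 in DESeq2, 0 without the low-count filter, 0 with only both groups in the fit and 0 to 1 with single libraries left out. The 1 member higher between CytoD and CK became 2 with the gene length correction, 0 with only both groups in the fit and 0 to 1 with single libraries left out. The 3 positive interactions became 1 with upper-quartile scaling, 5 in DESeq2, 5 with the length correction and 1 to 7 with single libraries left out. Uncalled values that changed sign were Orc4 with CK (-0.0008959 with RLE, -0.001372 in DESeq2, and -0.01713 to 0.05649 with single libraries left out), Orc6 between CytoD+CK and CytoD (-0.02225 with upper-quartile scaling, -0.02323 with the length correction), and, with libraries left out, Orc4 (-0.07229 to 0.01511) and Gins4 (-0.0318 to 0.02635) between CytoD+CK and CytoD. The cause was not tested. With the replicate block, 40 members fell with CytoD, 23 with CK and 39 with CytoD+CK, and 13 between CytoD+CK and CytoD; the block ended the calls of Rfc5 with CK and of Mcm2 in the interaction and changed no other member's call in the 7 comparisons. Depth limits the low members most: Orc1 had 68 to 120 counts per library in CytoD+CK.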
